A study of Rattus norvegicus with 12 samples.

Results

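The interferon response and antigen presentation genes are the genes that cells switch on when interferon binds its receptor, together with the receptor, its signalling parts and the proteins that cut and load peptides for class I molecules. They were examined in primary astrocyte cultures from the rat optic nerve head that were given epidermal growth factor (EGF). The members came from a list of 37 gene symbols, matched to the gene symbols of the array's annotation. Of the 37, 35 were matched and all 35 were bright enough to be tested, among 10261 genes tested in all. Xaf1, a partner of apoptosis inhibitors, and Cd274, the ligand PD-L1, were not analysed here. Where a gene had several probe sets, as 11 members had, the one with the highest mean signal over the 12 arrays stood for the gene.

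The groups were EGF for 12 h, control at 12 h, EGF for 4 h and control at 4 h, with 3 arrays each. The labels give each time its own controls. The strain, age and sex of the rats, the passage of the cultures and the EGF dose are not given in the sources used here. Whether the 3 replicates of a group came from separate cultures is not stated, so the p-values may measure only technical spread. Values are MAS5 signals, a brightness per probe set on a linear scale, and differences are given as log2 fold changes of the signal plus an offset of 24.4, with the standard error (SE). A gene was called higher or lower where limma's Benjamini-Hochberg adjusted p, taken over all 18625 tested probe sets, was under 0.05. All adjusted p values given are from that fit or, where arrays are left out or another setting is named, from the fit changed in that way.

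Type I interferons bind Ifnar1 and Ifnar2, and interferon gamma binds a receptor built on Ifngr1. Jak kinases at these receptors phosphorylate STAT proteins. Stat2 and Irf9 act in a complex that binds interferon-stimulated response elements, while the interferon gamma branch acts through gamma activated sites. The targets include antiviral effectors, RNA sensors, the inducible subunits of the immunoproteasome and the TAP peptide transporter, and astrocytes are known to carry this pathway.

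The arrays fell into sets by their control probe sets. Replicate 3 of both groups at 4 h had mean hybridisation control signals of 21217 (EGF) and 23645 (control), against 49.6 to 111 on the other 10 arrays. The actin 3' to 5' signal ratio, a sign of RNA degradation or short labelling products, was 11.1 to 21.74 on the 3 control arrays and EGF replicates 1 and 2 at 12 h. It was 1.24 on EGF replicate 3 at 12 h and 1.2 to 1.61 on the 6 arrays at 4 h. The 2% trimmed mean of each array was 1500.46 to 1500.56, so the arrays had been scaled alike. Of 10 astrocyte markers 6 passed the filter of 215.4: Vim and Gja1 averaged 72429 and 67135, Glul 5664, Aldoc 733, Slc1a3 354 and S100b 312. Gfap, Aqp4, Aldh1l1 and Slc1a2 were under it, at 185, 72.9, 127 and 96.0. Aldoc passed the filter only through the 12 h controls, with a mean of 2655 there and group means of 31.0 to 160.5 elsewhere. Col1a1, Col1a2 and Col3a1, collagen genes of fibroblasts and other mesenchymal cells, averaged 50943, 61998 and 88896. Gfap, the marker most used to define astrocytes, thus did not bear out the label.

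With EGF, 15 of the 35 members were lower and 1 was higher at 12 h, and 11 were lower and none was higher at 4 h by limma's test (at an unadjusted p under 0.05, 12 lower and 0 higher at 4 h). The members lower at both times were the transcription factors Irf7, Irf9 and Stat2, the regulators Ifi35 and Nmi, the RNA sensor Dhx58 and the effectors Mx2, Rtp4 and Ifi44. Ifi27l2b, a small protein of the Ifi27 family, was the member that rose at 12 h, by 3.27 ± 0.21 on the log2 scale. Over all tested genes, 24.2% were lower and 16.5% higher at 12 h (40.8% called in all), and 19.6% were lower and 12.8% higher at 4 h (32.4% called in all), so the members' 42.9% and 31.4% lower stood above these shares. With each array centred on its median, 12 members (34.3%) were lower at 12 h, against 18.6% of all tested genes. At 4 h 9 members (25.7%) were lower with centring, against 9.39% of all. In that fit 964 genes in all were lower and 1607 higher at 4 h, against 2011 and 1318 without centring. No test of the difference in shares was made, since the members were chosen with results known. The median log2 fold change of the members was -0.46 at 12 h and -0.41 at 4 h, against -0.09 and -0.17 over all tested genes. In bulk samples fewer cells of a type and less RNA per cell cannot be told apart.

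**Figure D1:**
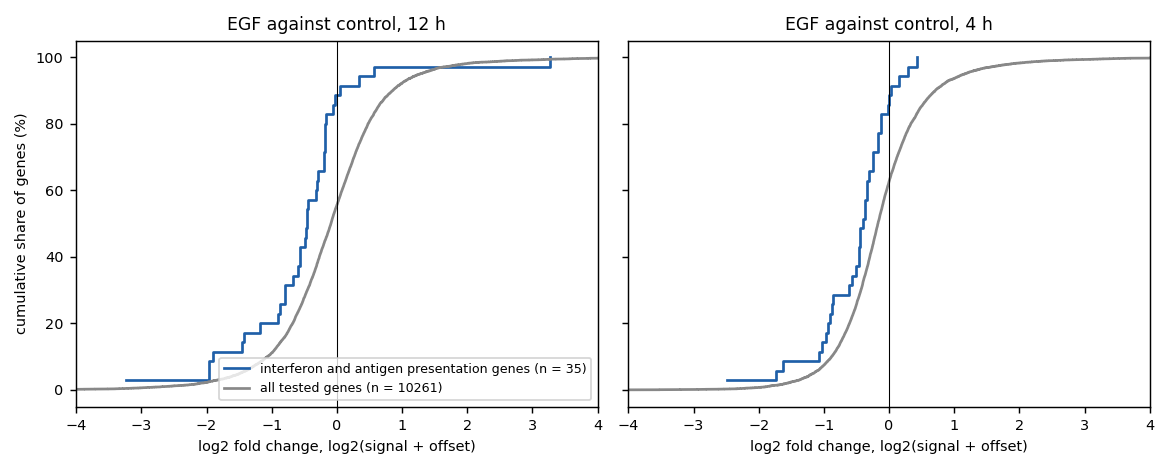
Cumulative share of genes (vertical axis, percent) by log2 fold change of EGF against control (horizontal axis, drawn between -4 and 4) at 12 h (left) and 4 h (right), for the 35 members (blue) and all 10261 tested genes (grey). The blue curves lie left of the grey ones over most of their range, with medians of -0.46 and -0.41 against -0.09 and -0.17, and the blue step at the far right of the 12 h panel is Ifi27l2b.

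The EGF and control arrays did not overlap in 17 lower members and 1 higher member at 12 h, where 31.8% of all tested genes were lower and 20.9% higher without overlap. At 4 h they did not overlap in 21 lower members and 2 higher ones, against 33.3% and 19.4% of all tested genes. The log2 fold change was below 0 in 31 of the 35 members at each time, against 55.6% of all tested genes at 12 h and 62.7% at 4 h. The members that were not called spanned -0.57 to 0.56 at 12 h and -0.57 to 0.42 at 4 h. By set of arrays, the 12 h median was -0.58 in the members and -0.09 in all genes without EGF replicate 3, and -0.32 and -0.15 with that EGF array alone. For the 4 h arrays it was -0.38 and -0.18 in replicates 1 and 2, and -0.38 and -0.15 in the replicate 3 pair. Without EGF replicate 3 at 12 h, 20 members (57.1%) were lower and 2 higher at 12 h, where 23.5% of all tested genes were lower and 18.1% higher in the same fit. In that fit 15 (42.9%) were lower at 4 h, against 26.4% of all. Without the replicate 3 pair, 9 members (25.7%) were lower at 4 h, against 13.9% of all. Without control replicate 1 at 12 h, 10 members (28.6%) were lower and 1 higher at 12 h, against 19.3% and 13.5% of all.

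Of 12 markers of macrophages and microglia 4 were tested, and their summed signal was mostly that of Cd14. The sum over all 12 was 6534 to 9048 on EGF arrays and 3768 to 4248 on control arrays at 12 h, and 6636 to 7974 on EGF arrays and 5071 to 5430.0 on control arrays at 4 h. Without Cd14 it was 1646 to 2532 on EGF arrays against 946 to 1258 on control arrays at 12 h. At 4 h it went the other way, with 953 to 1336 against 1575 to 1667. Most of the markers in this sum were under the filter, and of the rest only Cd68 was called at 12 h and none at 4 h. No shift of the list as a whole is read from these sums. Cd14, a receptor for bacterial lipopolysaccharide, rose at both times by 0.88 ± 0.16 (adjusted p = 0.000816) at 12 h and 0.73 ± 0.16 (adjusted p = 0.00392) at 4 h. Cd68, a lysosomal protein of macrophages, rose at 12 h by 3.70 ± 0.58 (adjusted p = 0.000243). Cd68 passed the filter only through the EGF arrays at 12 h, with a mean of 924.1 there and group means of 47.2 to 72.4 elsewhere. Its rise was thus measured against a control mean under the filter, 62.1 at 12 h. The defining markers Itgam and Ptprc averaged 26.0 and 54.8 over the arrays, under the filter, and no marker of lymphocytes or neurons passed it. The fibroblast and meningeal markers summed to 114820.0 to 184290.0 on EGF arrays against 208935 to 249909 on control arrays at 12 h, with 6 of 7 lower, and to 212647 to 226379 against 246584 to 277726 at 4 h, with 2 of 7 lower. Of the endothelial markers Tek fell at both times, at -1.18 ± 0.19 (adjusted p = 0.00029) at 12 h, and with means of 1167 with EGF and 2352 in controls at 4 h (adjusted p = 0.00149), while Pecam1, Kdr, Vwf and Cldn5 were under the filter. Without Tek the endothelial sums overlapped between groups at both times (627 to 742 with EGF against 479 to 852 in controls at 12 h). Of the oligodendrocyte markers Cnp and Mbp fell at 12 h, at -0.97 ± 0.17 (adjusted p = 0.00054) and -1.24 ± 0.19 (adjusted p = 0.000224), and at 4 h, at -0.99 ± 0.17 (adjusted p = 0.000679) and -1.23 ± 0.19 (adjusted p = 0.000351), while the defining markers Mog, Olig1, Olig2 and Sox10 were under the filter and Mag was not called. Of the 6 astrocyte markers tested, Aldoc and Glul fell at 12 h, at -5.64 ± 0.65 (adjusted p = 1.81e-05) and -1.28 ± 0.15 (adjusted p = 2.83e-05), and none was called at 4 h. Aldoc had 2234, 2811 and 2921 on the control arrays at 12 h, against 19.9, 52.8 and 20.3 on the EGF arrays. Its means at 4 h, 85.6 with EGF and 160.5 in controls, were also under the filter, which it passed only through the 12 h controls. No marker list was at 0 on any array. The part of these markers in the members' changes was not tested.

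**Figure D2:**
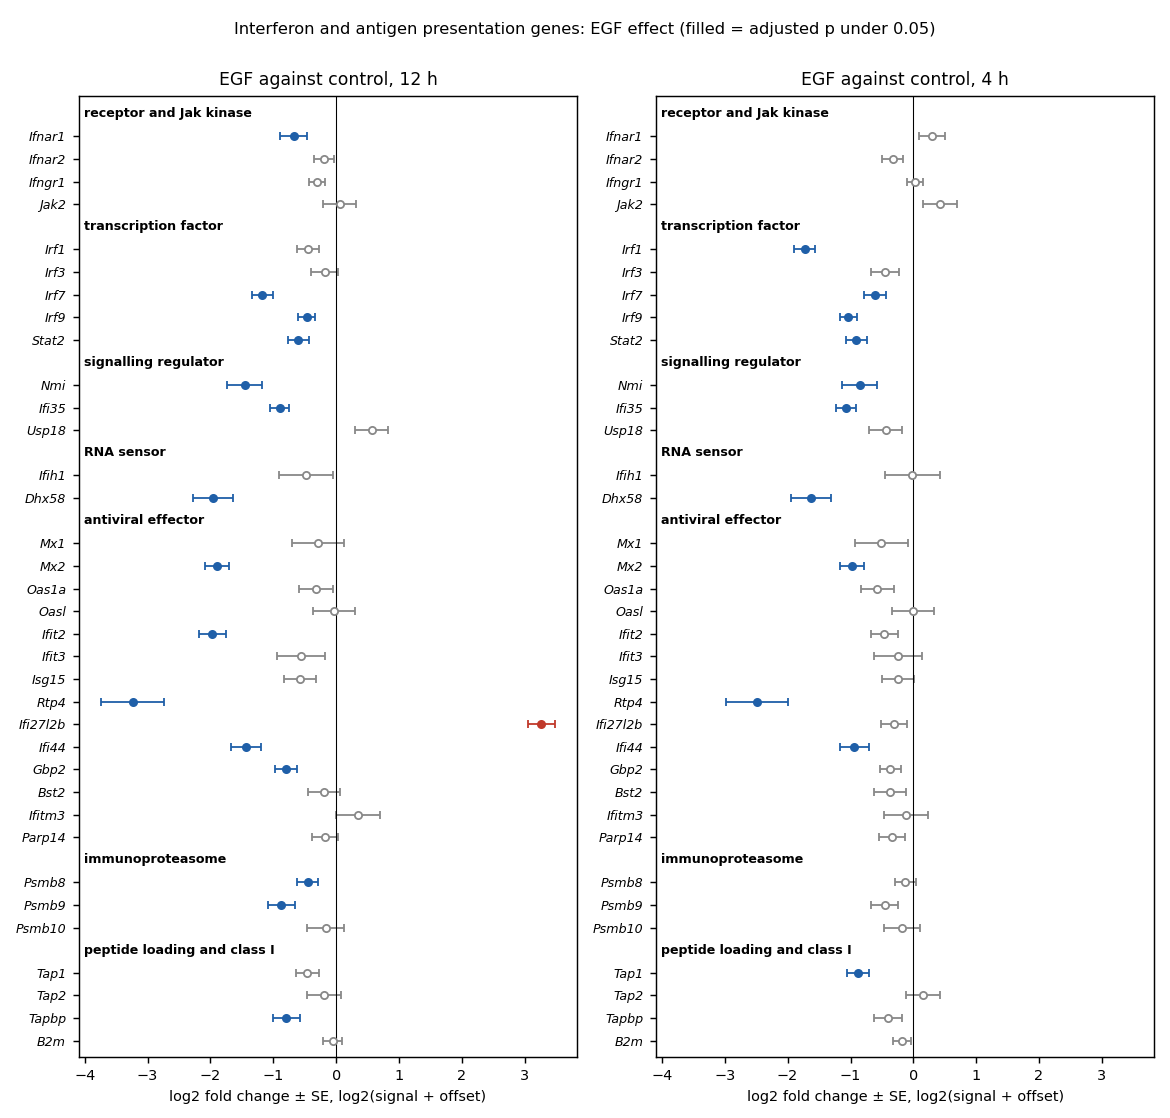
Log2 fold change (points) with its SE (bars) of EGF against control at 12 h (left) and 4 h (right) for the 35 members, grouped by role. Filled points passed an adjusted p of 0.05, blue for lower and red for higher: 15 blue and 1 red point at 12 h, and 11 blue points at 4 h.

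Of the 5 transcription factors, 3 were lower with EGF at 12 h and 4 at 4 h, against 24.2% and 19.6% of all tested genes. Irf9, the DNA-binding part of the complex with Stat2, had signals of 1432, 1476 and 1295 on the EGF arrays at 12 h, against 2079, 1879 and 1881 on the control arrays. At 4 h Irf9 had 1597, 1894 and 1610.5 on the EGF arrays, against 3395, 3674 and 3439 on the control arrays, with no overlap at either time. Each Irf9 signal with EGF was thus below all controls of its time, and the log2 fold changes were -0.47 ± 0.13 (adjusted p = 0.0135) at 12 h and -1.04 ± 0.13 (adjusted p = 6.72e-05) at 4 h. The 12 h call of Irf9 was lost under median centring (-0.40, adjusted p = 0.0919), without control replicate 1 (-0.42, 0.058) and with the 6 arrays of 12 h alone (-0.47, 0.0522). A second, dimmer Irf9 probe set was lower at -1.20 (adjusted p = 0.00261) at 12 h and -1.21 (adjusted p = 0.00342) at 4 h. Its partner Stat2 had 1224, 1096 and 1168 on the EGF arrays at 12 h, against 1949, 1708 and 1676 on the control arrays. Stat2 had 1244, 1435 and 1060.4 on the EGF arrays at 4 h, against 2506, 2663 and 1929 on the control arrays. Every Stat2 signal with EGF was below every control signal of the same time, with log2 fold changes of -0.60 ± 0.17 (adjusted p = 0.0123) at 12 h and -0.91 ± 0.17 (adjusted p = 0.0012) at 4 h. The 12 h call of Stat2 was lost under median centring (-0.53, adjusted p = 0.0608) and without control replicate 1 (-0.53, 0.0557).

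Irf1, a factor induced by interferon gamma that acts on class I and immunoproteasome genes, had 2628, 3302 and 3849 on the EGF arrays at 12 h, against 4665, 4031 and 4562 on the control arrays. The groups did not overlap, but the log2 fold change of -0.45 ± 0.17 (adjusted p = 0.0527) missed the threshold. Leaving out EGF replicate 3 of 12 h brought it to -0.58 (adjusted p = 0.0115), and leaving out control replicate 3 of 4 h to -0.45 (adjusted p = 0.046). At 4 h Irf1 had 1154, 933 and 934 on the EGF arrays, against 3859, 3514 and 2860.3 on the control arrays. The EGF signals at 4 h were far below those of the controls, with a change of -1.73 ± 0.17 (adjusted p = 6.89e-06). Irf7, which amplifies type I interferon production, had 1984, 1421 and 1630.2 on the EGF arrays at 12 h, against 4069, 3517 and 3804 on the control arrays. At 4 h Irf7 had 3878, 4443 and 3550.5 on the EGF arrays, against 5955, 7418 and 4968 on the control arrays. The Irf7 groups did not overlap at either time, and its log2 fold changes were -1.18 ± 0.17 (adjusted p = 0.000129) at 12 h and -0.61 ± 0.17 (adjusted p = 0.0158) at 4 h. The 4 h call was lost under median centring (-0.41, adjusted p = 0.177), without EGF replicate 3, at -0.54 (adjusted p = 0.0573), and without control replicate 2, at -0.46 (adjusted p = 0.0837). Irf3, which is activated downstream of nucleic acid sensors, was not called at 12 h (-0.18 ± 0.22) or at 4 h (-0.45 ± 0.22). Without EGF replicate 3 at 12 h, whose Irf3 signal of 3252 lay below the other 5 arrays of that time, Irf3 was lower at 4 h, at -0.45 (adjusted p = 0.00348).

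**Figure D3:**
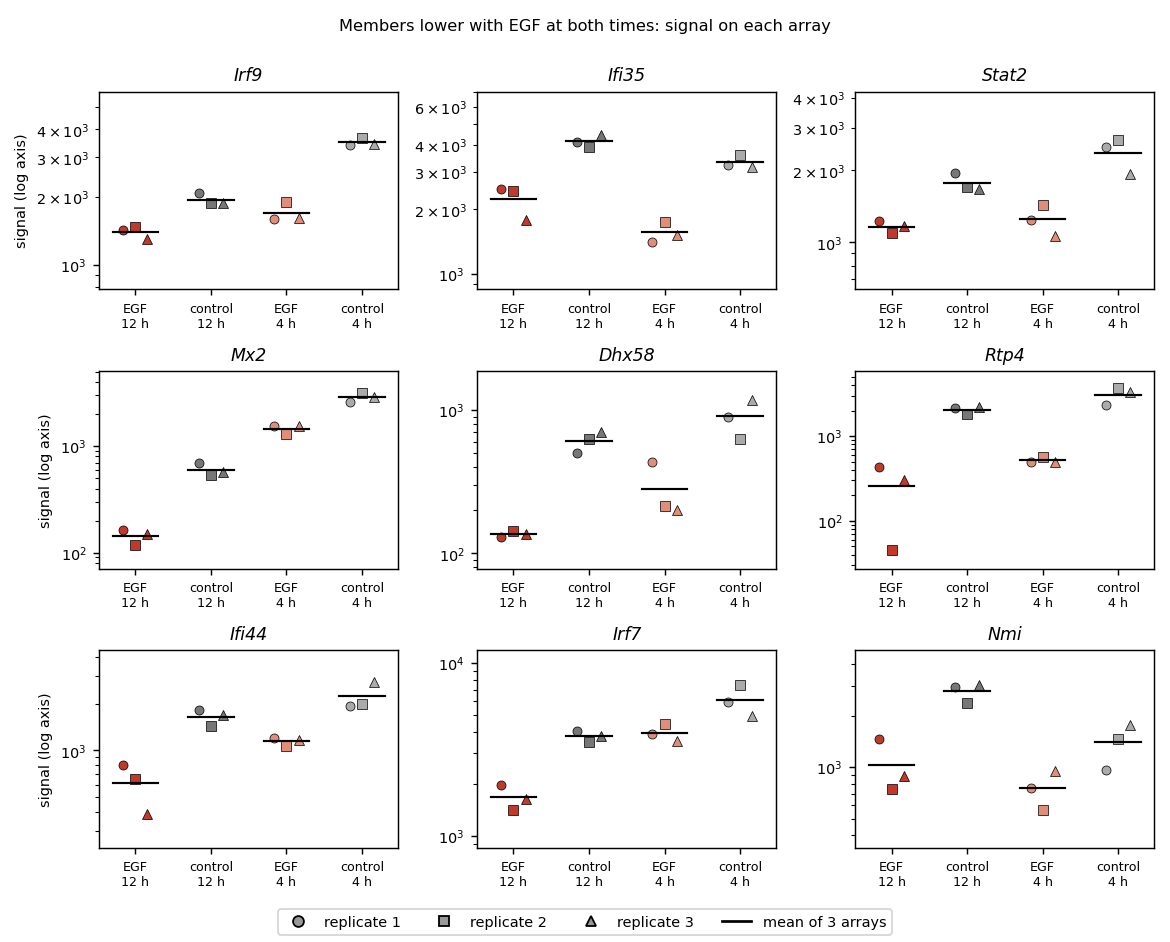
MAS5 signal (vertical axis, log scale) on each of the 12 arrays for the 9 members lower with EGF at both times; points are arrays, with the symbol giving the replicate number, and lines are means of 3 arrays. In each panel the EGF points lie below the control points of the same time, narrowly so for Nmi at 4 h.

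Promoter sequences are shown for the members lower at both times with the smallest adjusted p at 4 h, as far as the promoter table holds them (Irf9, Ifi35 and Stat2), and for the neighbouring genes Tap1 and Psmb9, to show what these promoters share. Each runs 5′ to 3′ from 250 bases before to 50 bases after the start that the promoter table, made from RefSeq on GRCr8, uses for the gene, and capitals mark the 2 motifs searched on both strands. One was TTTC, then NN, then TTTC, a short form of the interferon-stimulated response element, and the other TTC, then NNN, then GAA, the gamma activated site, where N is any base. In the windows printed no match overlapped another. The start used is the first base of the RefSeq gene record for Ifi35 and Tap1, but lies 414, 65 and 48 bases inside the record for Irf9, Stat2 and Psmb9, so that the Irf9 window lies wholly within its gene record.
Irf9 (chr15:33065586-33065885, + strand): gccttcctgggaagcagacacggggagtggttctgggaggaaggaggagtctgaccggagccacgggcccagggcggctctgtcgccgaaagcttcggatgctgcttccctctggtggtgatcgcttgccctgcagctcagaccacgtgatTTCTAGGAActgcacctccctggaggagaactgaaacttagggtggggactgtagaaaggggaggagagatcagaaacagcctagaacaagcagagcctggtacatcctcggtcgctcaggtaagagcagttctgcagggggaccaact
Ifi35 (chr10:86881020-86881319, + strand): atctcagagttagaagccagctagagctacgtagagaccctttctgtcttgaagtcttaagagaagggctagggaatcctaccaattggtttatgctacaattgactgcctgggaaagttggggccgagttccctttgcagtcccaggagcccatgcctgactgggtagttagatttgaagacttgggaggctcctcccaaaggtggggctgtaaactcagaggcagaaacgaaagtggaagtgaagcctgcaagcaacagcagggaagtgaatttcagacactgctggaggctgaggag
Stat2 (chr7:1286840-1287139, + strand): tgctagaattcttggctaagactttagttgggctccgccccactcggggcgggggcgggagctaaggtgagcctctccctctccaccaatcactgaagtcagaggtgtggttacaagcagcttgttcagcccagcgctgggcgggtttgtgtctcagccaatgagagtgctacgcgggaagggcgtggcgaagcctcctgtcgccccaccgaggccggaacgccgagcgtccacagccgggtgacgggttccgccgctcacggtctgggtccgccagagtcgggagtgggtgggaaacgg
Tap1 (chr20:4668494-4668793, - strand): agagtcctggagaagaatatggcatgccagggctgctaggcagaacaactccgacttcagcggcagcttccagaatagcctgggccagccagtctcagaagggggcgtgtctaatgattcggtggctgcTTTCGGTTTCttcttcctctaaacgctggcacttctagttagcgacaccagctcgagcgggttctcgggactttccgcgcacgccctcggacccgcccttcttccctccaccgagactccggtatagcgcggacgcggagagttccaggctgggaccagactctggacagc
Psmb9 (chr20:4668750-4669049, + strand): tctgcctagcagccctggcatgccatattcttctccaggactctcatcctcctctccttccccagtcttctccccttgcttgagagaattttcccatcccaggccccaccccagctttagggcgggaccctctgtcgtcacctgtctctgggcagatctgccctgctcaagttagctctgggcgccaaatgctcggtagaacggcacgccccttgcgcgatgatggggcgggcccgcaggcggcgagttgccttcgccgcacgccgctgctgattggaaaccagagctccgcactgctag

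The Irf9 window held the gamma activated site as TTCTAGGAA at bases 152 to 160 of its window, and the Tap1 window held the response element as TTTCGGTTTC at bases 130 to 139. In the Ifi35, Stat2 and Psmb9 windows neither run of letters was present. The starts used for Tap1 and Psmb9 lie 457 bases apart on opposite strands, and their gene records begin 409 bases apart, and their windows overlap by 44 bases. Promoters were in the table for 28 of the 35 members, and 16 of these 28 (57.1%) held the response element, against 3.77% of all 27457 promoters of the same length. The gamma activated site was in 8 of the 28 (28.6%), against 8.68% of all promoters. Of the members lower with EGF at 1 or both times, 7 of 13 (53.8%) held the response element, and of those lower at neither time, 9 of 15 (60%). A match describes the letters in a window and is not a site shown to be bound.

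Ifi35 and Nmi, interferon-induced proteins that bind each other, were lower with EGF at both times. Ifi35 had 2496, 2424 and 1790.0 on the EGF arrays at 12 h, against 4135, 3884 and 4418 on the control arrays. It had 1414, 1753 and 1525 on the EGF arrays at 4 h, against 3205, 3577 and 3147 on the control arrays. The Ifi35 groups were clearly apart at both times, with log2 fold changes of -0.90 ± 0.15 (adjusted p = 0.000474) at 12 h and -1.07 ± 0.15 (adjusted p = 0.00017) at 4 h. Nmi fell, with a change of -1.46 ± 0.28 (adjusted p = 0.00116) at 12 h, where the means were 1029.7 ± 377 with EGF and 2770.5 ± 356 in controls (SD, n = 3 each). At 4 h Nmi had 755, 561 and 955 on the EGF arrays, against 966, 1464 and 1772 on the control arrays, so that the highest EGF and lowest control signals almost met. Its 4 h change of -0.86 ± 0.28 (adjusted p = 0.0351) missed the threshold in 5 of the 12 fits that left out 1 array: without EGF replicate 1 (-0.87, adjusted p = 0.0774), EGF replicate 2 (-0.66, 0.146), control replicate 2 (-0.80, 0.102) or control replicate 3 (-0.67, 0.137) at 4 h, and without control replicate 1 at 12 h (-0.86, 0.0501). It also missed it under median centring (-0.66, 0.0935), quantile normalization (-0.76, 0.055), no intensity trend (-0.86, 0.052) and without the replicate 3 pair (-0.85, 0.0872). A second, dimmer Nmi probe set was not called at either time (-0.26 at 12 h and -0.69 at 4 h). Usp18, a protease that removes Isg15 and damps receptor signalling, was not called, at 0.56 ± 0.27 at 12 h and -0.44 ± 0.27 at 4 h. Without EGF replicate 3 at 12 h, Usp18 was higher at 12 h, at 0.82 (adjusted p = 0.0177).

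Of the cytoplasmic RNA sensors, Dhx58 (LGP2) was lower at both times. Dhx58 had 130.4, 144 and 136 on the EGF arrays at 12 h, against 499, 626 and 698 on the control arrays. At 4 h Dhx58 had 434, 215 and 201 on the EGF arrays, against 899.6, 632 and 1171 on the control arrays. The groups were apart at both times, and EGF replicate 1 at 4 h lay between its 2 replicates and the controls. Log2 fold changes of Dhx58 were -1.96 ± 0.32 (adjusted p = 0.000337) at 12 h and -1.62 ± 0.32 (adjusted p = 0.00195) at 4 h, and its EGF mean of 137 at 12 h was under the brightness filter of 215.4. Of 2 other Dhx58 probe sets, both were lower at 4 h and neither was called at 12 h. Ifih1 (MDA5) was not called, at -0.48 ± 0.43 at 12 h and -0.01 ± 0.43 at 4 h, and its signals overlapped between groups at both times.

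Among the 14 antiviral effectors, 5 were lower and 1 was higher at 12 h, and 3 were lower at 4 h. Over all tested genes 24.2% were lower and 16.5% higher at 12 h, and 19.6% were lower at 4 h. The 4 h count was near that share, and nothing about the effectors as a group is read from it. Rtp4, an interferon-induced receptor chaperone, had the largest fall at both times among the members. Rtp4 had 438, 45.6 and 300.0 on the EGF arrays at 12 h, against 2163, 1797 and 2188 on the control arrays. At 4 h Rtp4 had 495, 573 and 499.8 on the EGF arrays, against 2332, 3669.8 and 3269 on the control arrays. All 6 EGF signals were below all 6 control signals, with log2 fold changes of -3.24 ± 0.50 (adjusted p = 0.000212) at 12 h and -2.49 ± 0.50 (adjusted p = 0.00217) at 4 h. EGF replicate 2 at 12 h was far below its replicates, and the 12 h change was -2.42 without it. Mx2, a dynamin-like antiviral GTPase, had 163, 118 and 149.8 on the EGF arrays at 12 h, against 702, 537 and 567 on the control arrays. At 4 h Mx2 had 1555, 1300.0 and 1532 on the EGF arrays, against 2618, 3187 and 2874 on the control arrays. Its log2 fold changes were -1.90 ± 0.19 (adjusted p = 4.85e-06) at 12 h and -0.97 ± 0.19 (adjusted p = 0.00176) at 4 h, and a second Mx2 probe set was lower at both times too, at -0.92 at 12 h and -1.06 at 4 h. Mx1, the other Mx protein, was at -0.29 ± 0.42 at 12 h and -0.51 ± 0.42 at 4 h and was not called.

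Ifit2, which binds viral RNA and blocks translation, was lower at 12 h. It had 1383, 866 and 751 on the EGF arrays at 12 h, against 3212, 3588 and 4965 on the control arrays. The 3 EGF signals were all less than the lowest control signal, and the log2 fold change was -1.97 ± 0.21 (adjusted p = 1.08e-05). At 4 h Ifit2 had 3778, 3456 and 3269 on the EGF arrays, against 4404, 4941 and 5160.4 on the control arrays, without overlap, and the change of -0.46 ± 0.21 (adjusted p = 0.126) was not called. It passed at 4 h without EGF replicate 1 at 12 h, at -0.46 (adjusted p = 0.0488). Ifi44, an interferon-induced cytoplasmic protein, had 808, 654 and 389 on the EGF arrays at 12 h, against 1812, 1432 and 1693 on the control arrays. Without overlap at either time, Ifi44 changed by -1.43 ± 0.24 (adjusted p = 0.000377) at 12 h and -0.94 ± 0.24 (adjusted p = 0.00943) at 4 h, and the 4 h call was lost without the replicate 3 pair, at -0.79 (adjusted p = 0.082). Gbp2, a guanylate-binding GTPase, averaged 2409 ± 581 with EGF and 4130.4 ± 166 in controls at 12 h (SD, n = 3 each), a change of -0.80 ± 0.17 (adjusted p = 0.00264). At 4 h Gbp2 was at -0.36 ± 0.17 (adjusted p = 0.136), and it passed there without EGF replicate 3 at 12 h, at -0.36 (adjusted p = 0.0363).

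Ifi27l2b had 4142, 4487 and 3385 on the EGF arrays at 12 h, against 496, 472 and 255 on the control arrays. The lowest EGF signal at 12 h was far above the highest control signal, and the log2 fold change was 3.27 ± 0.21 (adjusted p = 8.61e-08). At 4 h Ifi27l2b had 8012, 8199 and 8234 on the EGF arrays, against 9364, 11684 and 9371 on the control arrays, a change of -0.31 ± 0.21 (adjusted p = 0.31). The 12 h EGF arrays were thus below both groups at 4 h, and the 12 h controls were lower still. The other effectors were not called at either time. Oas1a and Oasl, enzymes of the oligoadenylate synthetase family, were at -0.32 and -0.04 at 12 h and -0.57 and -0.01 at 4 h. Ifit3, a partner of Ifit2, was at -0.57 at 12 h and -0.24 at 4 h, and Isg15, a ubiquitin-like modifier, at -0.57 and -0.24. Bst2, which tethers budding virus, was at -0.19 at 12 h and -0.38 at 4 h, and Parp14, an ADP-ribosyltransferase, at -0.18 and -0.34. Ifitm3, which blocks viral fusion, was at 0.35 ± 0.35 at 12 h, where EGF replicate 3 had a signal of 16604 and EGF replicates 1 and 2 had 4661 and 5068. It was at -0.12 ± 0.35 at 4 h. Without EGF replicate 3 at 12 h, Ifit3 (-0.95, adjusted p = 0.0493) and Parp14 (-0.48, adjusted p = 0.0122) were lower at 12 h, and Parp14 was lower at 4 h, at -0.34 (adjusted p = 0.0399). Isg15 was lower at 12 h without control replicate 3 of that time, at -0.89 (adjusted p = 0.0119).

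Of the 3 receptor chains and Jak2, 1 was lower at 12 h and none was called at 4 h. Over all tested genes 24.2% were lower at 12 h and 32.4% were called at 4 h, and nothing is read from so few genes. Ifnar1 was lower at 12 h, with signals of 601, 756 and 1168 on the EGF arrays at 12 h, against 1426, 1389 and 1139 on the control arrays. EGF replicate 3 lay above control replicate 3, so the groups overlapped, and the log2 fold change was -0.68 ± 0.21 (adjusted p = 0.0223). This call was lost in 4 of the fits that left out 1 array of 12 h: EGF replicate 1 (-0.47, adjusted p = 0.0797), EGF replicate 2 (-0.63, adjusted p = 0.0628), control replicate 1 (-0.62, adjusted p = 0.0783) and control replicate 2 (-0.64, adjusted p = 0.0716). None of 5 other tested Ifnar1 probe sets was called at 12 h, the mean over all its probe sets gave -0.32 (adjusted p = 0.314), and the 6 arrays of 12 h alone gave -0.68 (adjusted p = 0.0789). At 4 h Ifnar1 was at 0.29 ± 0.21. Ifnar2, the other chain, was at -0.19 ± 0.16 at 12 h and -0.33 ± 0.16 at 4 h, and Ifngr1 at -0.31 ± 0.12 and 0.03 ± 0.12. Ifnar2 was lower at 4 h without control replicate 2 of that time, at -0.49 (adjusted p = 0.0452), and Ifngr1 was lower at 12 h without EGF replicate 1, at -0.36 (adjusted p = 0.0494). Jak2 was at 0.05 ± 0.27 at 12 h and 0.42 ± 0.27 at 4 h. The interferon genes Ifnb1, Ifng and Ifnk had mean signals of 24.5, 30.7 and 42.4, under the filter, and were not tested.

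Of the antigen presentation members, Psmb8, Psmb9 and Tapbp were lower with EGF at 12 h and Tap1 was lower at 4 h. Tap1, a subunit of the peptide transporter, was at -0.46 ± 0.18 (adjusted p = 0.0641) at 12 h, and passed without EGF replicate 3 (-0.54, adjusted p = 0.033) or control replicate 3 (-0.58, adjusted p = 0.0422) of that time, or EGF replicate 3 of 4 h (-0.46, adjusted p = 0.0496). At 4 h Tap1 had 1029.8, 1019.6 and 1378 on the EGF arrays, against 1824, 2376 and 2144 on the control arrays. The groups did not overlap at 4 h, and the log2 fold change was -0.88 ± 0.18 (adjusted p = 0.00266). Tap2, the other subunit, was at -0.20 ± 0.27 at 12 h and 0.15 ± 0.27 at 4 h. Tapbp (tapasin), which bridges the transporter and class I molecules, averaged 828 ± 246 with EGF and 1421 ± 204 in controls at 12 h (SD, n = 3 each), a change of -0.79 ± 0.22 (adjusted p = 0.0115) that was -0.68 (adjusted p = 0.0563) without control replicate 1. At 4 h Tapbp was at -0.41 ± 0.22. B2m, the shared light chain of class I molecules, had the highest signals of the members, between 58316 and 85318 on every array, and was at -0.06 ± 0.14 at 12 h and -0.18 ± 0.14 at 4 h.

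Psmb9, an inducible catalytic subunit of the immunoproteasome, had 690.1, 979 and 1514 on the EGF arrays at 12 h, against 1828, 2029 and 1749.5 on the control arrays. The groups were apart, with EGF replicate 3 nearest the controls, and the log2 fold change was -0.87 ± 0.22 (adjusted p = 0.00656). At 4 h Psmb9 was at -0.46 ± 0.22 (adjusted p = 0.138) and was lower without EGF replicate 3 at 12 h, at -0.46 (adjusted p = 0.0174), or without EGF replicate 1 at 12 h, at -0.46 (adjusted p = 0.0493). Psmb8 averaged 1297 ± 140.0 with EGF and 1786 ± 186 in controls at 12 h (SD, n = 3 each), and its change of -0.46 ± 0.17 (adjusted p = 0.0495) sat at the threshold and was lost in 15 of 24 alternatives, among them the replicate block (adjusted p = 0.0526) and 8 of the 12 fits that left out 1 array (-0.37 to -0.52, adjusted p 0.0538 to 0.168). Psmb8 was at -0.13 ± 0.17 at 4 h. Psmb10 was at -0.17 ± 0.29 at 12 h and -0.17 ± 0.29 at 4 h. Its signal on EGF replicate 3 at 12 h was 2379.6, against 847 and 958 on the other EGF arrays, and without that array Psmb10 was lower, at -0.63 (adjusted p = 0.00369). The constitutive subunits that Psmb8 and Psmb10 replace, Psmb5 and Psmb7, were higher at 12 h, by 0.40 ± 0.11 (adjusted p = 0.0105) and 0.87 ± 0.20 (adjusted p = 0.00353), and were not called at 4 h (-0.03 and 0.17). Psmb6, which Psmb9 replaces, was not analysed here. EGF replicate 3 held the highest Psmb7 signal of that time, 17719.5, against 9335 and 11096 on the other EGF arrays.

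The comparisons at 12 h and 4 h had separate control arrays. Of the 15 members lower at 12 h, 9 (60%) were lower at 4 h too, and these 9 made up 81.8% of the 11 lower at 4 h. Over all tested genes 1230 were lower at both times, which was 49.5% of those lower at 12 h and 61.2% of those lower at 4 h. Of the other members, Gbp2, Ifit2, Ifnar1, Psmb8, Psmb9 and Tapbp were lower at 12 h, and Irf1 and Tap1 at 4 h. Calls at 1 time do not show that the effects differed between times, which the difference between the effects tests.

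The EGF effect differed between 12 h and 4 h in 4 members, 2 higher and 2 lower, or 5.71% each, against 6.55% higher and 7.45% lower over all tested genes (14% called in all). These shares are near each other, and nothing about the members is read from the count. The arrays of the 2 times also differed in the actin 3' to 5' ratio, apart from EGF replicate 3 at 12 h. Time, experiment and RNA or labelling quality therefore cannot be told apart in this difference. Ifi27l2b, which rose at 12 h, gave a difference of 3.57 ± 0.30 (adjusted p = 1.28e-05). Irf1, whose fall was larger at 4 h, gave 1.28 ± 0.24 (adjusted p = 0.00433). For Ifit2, whose fall was larger at 12 h, the difference was -1.51 ± 0.30 (adjusted p = 0.00623), and it was -1.33 (adjusted p = 0.00362) without EGF replicate 3 at 12 h. The other Ifit2 probe set was not called, at -1.06 (adjusted p = 0.14). Mx2 gave -0.93 ± 0.27 (adjusted p = 0.0386), a call that was lost in 15 of 23 alternatives, among them the replicate block (adjusted p = 0.0588) and 10 of the 12 fits that left out 1 array (-0.81 to -1.01, adjusted p 0.0534 to 0.104), and the other Mx2 probe set gave 0.14. Without EGF replicate 3 at 12 h, the count was 10 in place of 4, with 5 higher and 5 lower (14.3% each), against 10.1% and 9.08% of all tested genes in that fit.

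**Figure D4:**
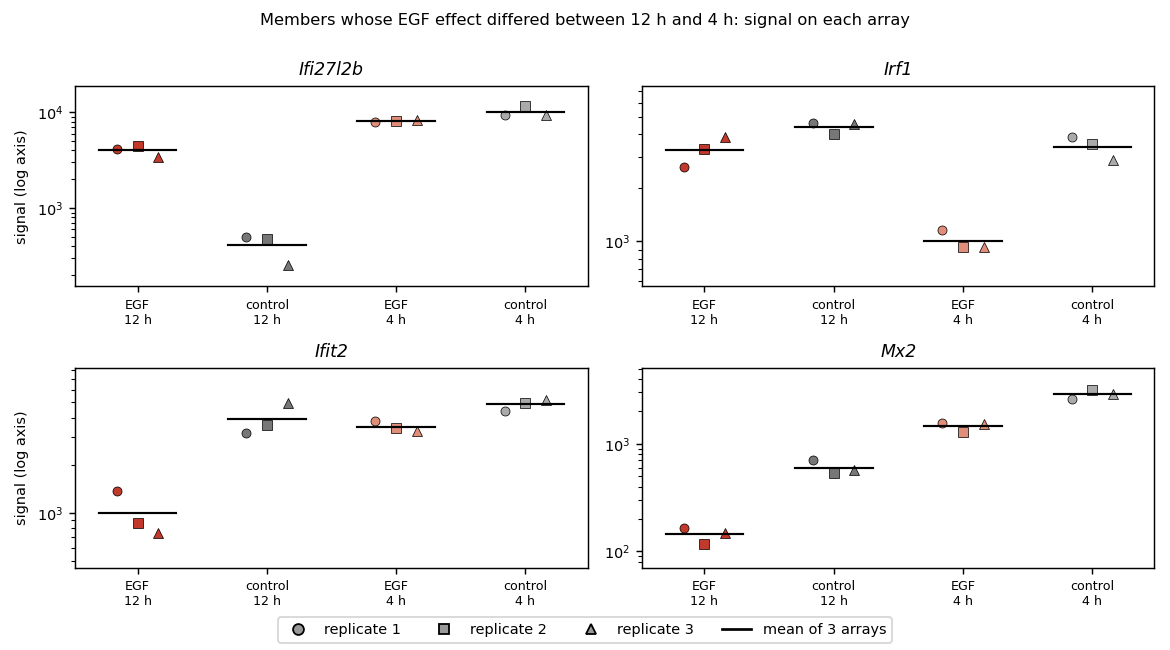
MAS5 signal (vertical axis, log scale) on each array for the 4 members whose EGF effect differed between times; points are arrays, with the symbol giving the replicate number, and lines are means of 3 arrays. Ifi27l2b lies at a mean of 4005 with EGF and 408 in controls at 12 h, while the 2 groups at 4 h lie close together, and Irf1 is widest apart at 4 h.

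Between the controls, 17 members were lower and 2 higher at 12 h than at 4 h, or 48.6% and 5.71%, against 16.6% lower and 28.4% higher over all tested genes (45.1% called in all). The median of the members was -0.67, against 0.17 over all tested genes. The 2 control groups also differed in the actin 3' to 5' ratio, 11.1 to 21.74 at 12 h and 1.2 to 1.61 at 4 h, so time, experiment and RNA or labelling quality cannot be told apart in this comparison. EGF replicate 3 at 12 h, with a ratio of 1.24, lay above the other EGF arrays of that time in 8 of these 17 lower members (47.1%), against 68.0% of all 1705 genes lower in the 12 h controls. Control arrays of the 2 times did not overlap in 22 lower and 6 higher members, against 23.4% and 39.4% of all tested genes.

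Ifi27l2b had 496, 472 and 255 on the control arrays at 12 h, against 9364, 11684 and 9371 at 4 h. The lowest 4 h control was many times the highest 12 h control, a difference of -4.60 ± 0.21 (adjusted p = 2.33e-08). Ifitm3 had 6152, 5413 and 5730.0 on the control arrays at 12 h, against 47574, 50441 and 56616 at 4 h, a difference of -3.15 ± 0.35 (adjusted p = 2.88e-05), and its EGF replicate 3 at 12 h (16604) lay between the 2 control groups. Mx2 had 702, 537 and 567 on the control arrays at 12 h, against 2618, 3187 and 2874 at 4 h, a difference of -2.23 ± 0.19 (adjusted p = 3.37e-06). Usp18, Isg15, Oas1a and Psmb9 were lower in the same way. Usp18 had 299, 200.3 and 325 on the control arrays at 12 h, against 1282, 1788 and 1303 at 4 h, a difference of -2.32 ± 0.27 (adjusted p = 4.04e-05). Isg15 had 1444, 836 and 564 on the control arrays at 12 h, against 4019, 4317 and 4035 at 4 h, a difference of -2.19 ± 0.26 (adjusted p = 4.91e-05). None of these groups overlapped. Oas1a had 305, 169 and 269.7 on the control arrays at 12 h, against 1020.1, 1404 and 1245 at 4 h, a difference of -2.22 ± 0.27 (adjusted p = 5.69e-05). Psmb9 had 1828, 2029 and 1749.5 on the control arrays at 12 h, against 4778, 5717 and 4714 at 4 h, a difference of -1.43 ± 0.22 (adjusted p = 0.000275).

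Of the transcription factors, Irf9 was lower, at -0.84 ± 0.13 (adjusted p = 0.000341), but its second probe set was not, at -0.09 (adjusted p = 0.797). Irf7 was lower too, at -0.67 ± 0.17 (adjusted p = 0.00651), a call lost under median centring (-0.50, adjusted p = 0.0592). Of the remaining lower members, Mx1, Ifit3 and Jak2 were at -2.52, -1.71 and -1.70. Mx1 passed the filter of 215.4 only through the 4 h arrays, and its control mean at 12 h, 199.8, was under the filter. Its difference therefore depends on the offset. Bst2 (-0.82), Parp14 (-0.83), Psmb8 (-0.67), Psmb10 (-0.97) and Tap2 (-0.99, or -0.66 without control replicate 2 at 12 h) were lower too, so that all 3 immunoproteasome subunits were. The Bst2 call was lost without control replicate 3 at 4 h (-0.74, adjusted p = 0.0625) or control replicate 1 (-0.75, 0.0649) or 3 (-0.79, 0.0566) at 12 h, and the Psmb10 call without control replicate 2 at 4 h (-0.90, 0.0532). Irf3 was higher at 12 h, by 0.85 ± 0.22 (adjusted p = 0.00638), and EGF replicate 3 at 12 h had 3252, within the range of the 4 h controls. Nmi was higher by 1.01 ± 0.28 (adjusted p = 0.0105), but was 0.77 (adjusted p = 0.0536) without control replicate 1 at 4 h, and its second probe set was lower, at -1.72. Ifi35, Irf1, Stat2, Dhx58, Ifi44, Ifit2, Ifih1, Oasl, Rtp4, Gbp2, Tap1, Tapbp, B2m, Ifnar1, Ifnar2 and Ifngr1 were not called, between -1.05 and 0.38. Other probe sets of 4 of these members were lower, however: those of Dhx58 at -1.61 (adjusted p = 0.00206) and -2.26 (0.00907), 3 of 5 of Ifnar1 at -2.29 (0.000527), -3.21 (0.000203) and -0.62 (0.0407), and those of Ifit2 at -1.66 (0.000969) and B2m at -0.65 (0.000686). With probe sets averaged, Dhx58 (-1.47, adjusted p = 0.00206), Ifnar1 (-1.07, 0.00269), Ifit2 (-0.99, 0.0012) and B2m (-0.41, 0.0148) were lower. In the fit without EGF replicate 3 of 12 h 22 members (62.9%) were lower and 4 (11.4%) higher, against 19.8% and 33.5% of all tested genes.

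**Figure D5:**
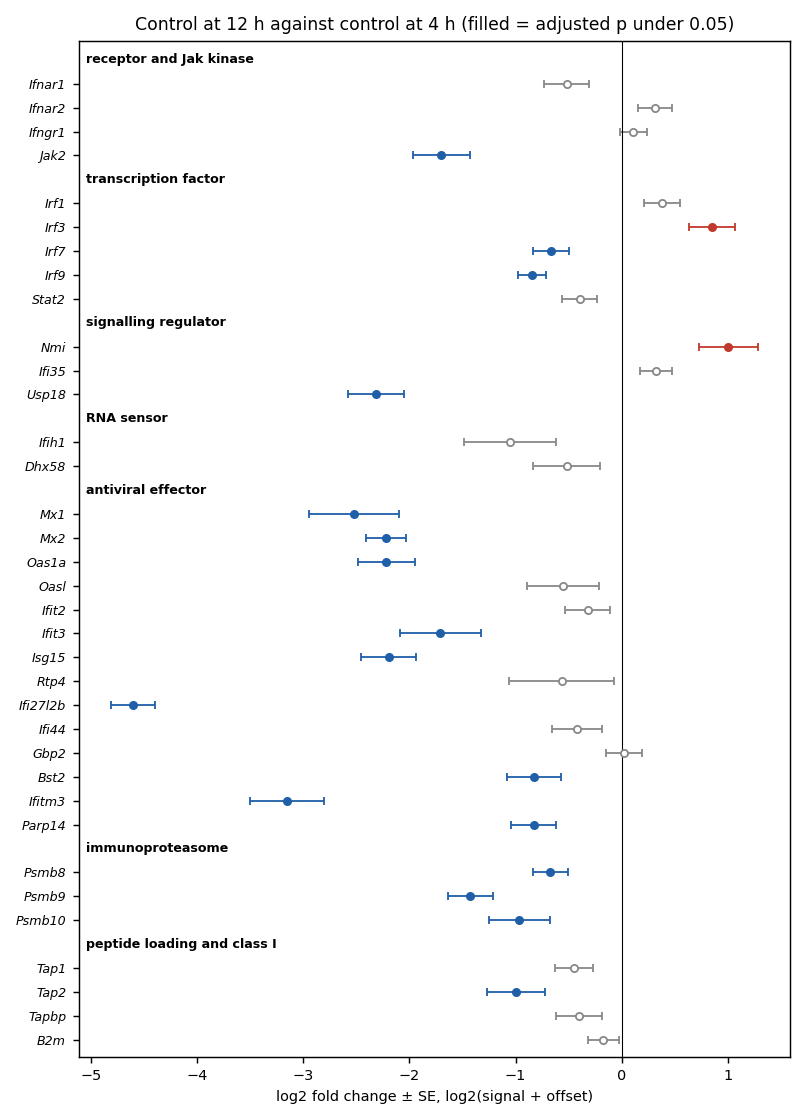
Log2 fold change (points) with its SE (bars) of control at 12 h against control at 4 h for the 35 members, grouped by role. Filled points passed an adjusted p of 0.05, 17 lower (blue) and 2 higher (red), with Ifi27l2b at -4.60 and Ifitm3 at -3.15 farthest left.

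Other genes of the pathway, from a list of 188 that was drawn up with results of these data known, were measured for 132 genes, of which 104 were tested. At 12 h 38 were lower and 12 higher (36.5% and 11.5%), against 24.2% and 16.5% of all tested genes. At 4 h 20 were lower and 7 higher (19.2% and 6.73%), against 19.6% and 12.8% of all. The lower share at 4 h was near that of all tested genes. Rig1, the RNA sensor RIG-I, had 962, 847 and 851 on the EGF arrays at 12 h, against 3592, 3146 and 3519.5 on the control arrays, and changed by -1.92 ± 0.14 (adjusted p = 2.06e-07) at 12 h and -1.11 ± 0.14 (adjusted p = 4.98e-05) at 4 h. RT1-M3-1, a non-classical class I molecule, fell at 12 h, with a change of -2.78 ± 0.16 (adjusted p = 2.87e-08), and so did Casp4, an inflammatory caspase, with -2.12 ± 0.18 (adjusted p = 1.15e-06). Parp9 and Slfn5, interferon-induced genes, had changes at 12 h of -1.40 ± 0.15 (adjusted p = 9.00e-06) and -1.30 ± 0.14 (adjusted p = 1.26e-05). Trim34, a TRIM family protein, changed by -2.14 ± 0.23 (adjusted p = 1.13e-05) at 12 h and -2.34 ± 0.23 (adjusted p = 7.72e-06) at 4 h. At 4 h Irgm, an immunity-related GTPase, changed by -1.51 ± 0.14 (adjusted p = 4.25e-06), the restriction factor Trim5 by -1.15 ± 0.12 (adjusted p = 1.02e-05), Trafd1 by -1.33 ± 0.15 (adjusted p = 2.79e-05) and Rfx5, a regulator of class II and class I genes, by -1.43 ± 0.15 (adjusted p = 1.40e-05).

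Some pathway genes moved the other way. Cxcl10, a chemokine induced by interferon and by NF-kappaB, had 5344, 7695 and 7322 on the EGF arrays at 12 h, against 430.0, 325 and 570.3 on the control arrays. At 4 h Cxcl10 had 1281, 1261 and 1244 on the EGF arrays, against 270.3, 558 and 365 on the control arrays. Cxcl10 rose by 3.88 ± 0.26 (adjusted p = 1.09e-07) at 12 h and 1.66 ± 0.26 (adjusted p = 0.000323) at 4 h, without overlap at either time. Slfn4 and Slfn2, Schlafen family genes, rose by 2.11 ± 0.47 (adjusted p = 0.00335) and 2.62 ± 0.52 (adjusted p = 0.00154) at 12 h and by 2.88 ± 0.47 (adjusted p = 0.000505) and 2.19 ± 0.52 (adjusted p = 0.00672) at 4 h. At 12 h the kinase Jak1 rose by 0.71 ± 0.11 (adjusted p = 0.000192), the class I gene RT1-S3 by 0.97 ± 0.15 (adjusted p = 0.000255) and the adaptor Sting1 by 0.87 ± 0.19 (adjusted p = 0.0031). At 4 h Nampt, an NAD biosynthesis enzyme, rose by 0.83 ± 0.12 (adjusted p = 0.000227), the exonuclease Isg20 by 0.65 ± 0.20 (adjusted p = 0.0234) and the class I gene RT1-N3 by 0.83 ± 0.26 (adjusted p = 0.0273). Class I genes of the rat are near-identical to each other, so that probe sets can share signal between them.

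Egfr, the receptor of EGF, had 6572, 5073 and 5293 on the EGF arrays at 12 h, against 8412, 8278 and 7295 on the control arrays. At 4 h Egfr had 8939, 8075 and 7317 on the EGF arrays, against 5095, 5674 and 5967 on the control arrays. It was lower with EGF at 12 h, at -0.51 ± 0.14 (adjusted p = 0.00978), and higher at 4 h, at 0.54 ± 0.14 (adjusted p = 0.00924), and the difference between the effects was -1.04 ± 0.19 (adjusted p = 0.00375). In the controls Egfr was higher at 12 h than at 4 h, by 0.52 ± 0.14 (adjusted p = 0.00747).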

How the data were processed

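RNA from primary optic nerve head astrocyte cultures of the rat was measured on 12 Affymetrix 1-colour arrays. Groups and replicate numbers were read from the sample titles, since every description reads as control. The deposited values are linear intensity, 1 value per probe set. According to the submitters' processing notes the authors used MAS5; its version is not given in the sources used here. No detection calls were used, and for arrays their number limits the precision.

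Of 31099 probe sets, 57 controls were left out, and the 18625 whose mean signal reached the 40th percentile (215.4) entered the tests. Values were put on a log2 scale after adding 24.4 (the 10th percentile of the signals), and group means were fitted over all 12 arrays with limma 3.58.1 in R 4.3.3, with empirical Bayes moderation, an intensity trend and 8 residual degrees of freedom. All tests were two-sided, and p values were adjusted by Benjamini-Hochberg across the tested probe sets, with a threshold of 0.05. The script was tested on simulated data. Genes were named from the platform's annotation (20832 probe sets with 1 symbol, 436 with several, 9831 with none), and 20764 of them could be linked to current gene records through the gene identifier.

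The members and lists were chosen with earlier results of these data known. Named in full were up to 8 called members per comparison with the smallest adjusted p, up to 6 pathway genes per direction, Egfr, and the constitutive proteasome subunits. Same-numbered EGF and control arrays were compared after removing group means. They correlated at 0.121, 0.150 and 0.376 at 4 h, and at 0.083, -0.111 and -0.103 at 12 h. At 4 h EGF replicate 1 with control replicate 2 gave 0.142, and EGF replicate 2 with control replicate 1 gave 0.138. The values thus set the replicate 3 pair apart but do not show that replicates 1 and 2 were paired by number. The main fit used no pairing, and the replicate block was an alternative. Sets of arrays were defined by 2 cutoffs, 1000 for the mean signal of the hybridisation controls and 5 for actin's 3' over 5' signal. The alternatives were other offsets (6.1, 97.6), no filter, the 60th percentile, median centring, quantile normalization, no trend, the mean of a gene's probe sets, replicate and array set blocks, 6 arrays of 1 time, and leaving out the replicate 3 pair or each array. Promoters are RefSeq's (GRCr8). Figures were drawn with matplotlib 3.10.9.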

Additional observations from a re-analysis of the deposited data

Results flagged for a closer look

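In 4 members the EGF effect differed between 12 h and 4 h by the test of the difference itself, adjusted over all tested probe sets in limma. Time, experiment and RNA or labelling quality cannot be told apart in this difference. These members were 2 higher and 2 lower (5.71% each), against 6.55% higher and 7.45% lower over all tested genes. Nothing about the members is read from this count. Ifi27l2b had a difference of 3.57 ± 0.30 (adjusted p = 1.28e-05) on the log2 scale, with its 3 EGF arrays above its 3 control arrays at 12 h. Irf1 had 1.28 ± 0.24 (adjusted p = 0.00433), with the EGF arrays below the controls at both times. Ifit2 had -1.51 ± 0.30 (adjusted p = 0.00623) and Mx2 -0.93 ± 0.27 (adjusted p = 0.0386), each with the EGF arrays below the controls at both times. The Mx2 call was lost in 15 of 23 alternatives. The second probe sets of Mx2 and Ifit2 were not called, at 0.14 and -1.06.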

How the results depend on the processing

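The counts of members called were compared under all alternatives. They were 11 to 22 at 12 h (16 as reported), 9 to 16 at 4 h (11), 3 to 11 for the difference between the effects (4) and 17 to 26 between the controls (19). Leaving out 1 array gave 11 to 22 at 12 h, 10 to 15 at 4 h, 3 to 10 for the difference and 18 to 26 between the controls, in each case highest without EGF replicate 3 at 12 h. For the difference between the effects, the array set as a block gave 11 members and leaving out EGF replicate 3 at 12 h gave 10, against 4. Called in every alternative that tested them were 11 members at 12 h (Dhx58, Gbp2, Ifi27l2b, Ifi35, Ifi44, Ifit2, Irf7, Mx2, Nmi, Psmb9 and Rtp4), 8 at 4 h (Dhx58, Ifi35, Irf1, Irf9, Mx2, Rtp4, Stat2 and Tap1) and 3 for the difference (Ifi27l2b, Ifit2 and Irf1). With the filter at the 60th percentile 29 of the 35 members were tested, and Dhx58 was not among them. The change of Nmi between the controls was reversed, at -0.36, when its probe sets were averaged, against 1.01. With the replicate block, 16 members were called at 12 h, 11 at 4 h and 3 for the difference. It lost Psmb8 at 12 h and Mx2 in the difference, gained Irf1 at 12 h (-0.45, adjusted p = 0.0461), and changed no other member's call. Whether equal replicate numbers at the 2 times share an experiment is not stated, and no paired fit was made between the controls. Over all tested genes, median centring gave 1607 higher and 964 lower at 4 h against 1318 and 2011, moving the median of all genes to 0.02, against -0.17, and 344 higher and 724 lower for the difference against 672 and 764. Between the controls it gave 3599 higher and 1216 lower against 2919 and 1705, with a median of 0.34 against 0.17. The array set as a block gave 3213 lower genes at 4 h against 2011, and 1456 higher and 1228 lower for the difference against 672 and 764. Leaving out 1 array gave 416 to 1035 higher for the difference. The causes were not tested. Mean EGF signals at 12 h were under the filter of 215.4 in Dhx58, Ifit3, Mx1, Mx2 and Oas1a, so their fold changes depend on the offset: Mx2 at 12 h was -2.02 with an offset of 6.1 and -1.53 with 97.6. The control mean of Mx1 at 12 h, 199.8, was under the filter too.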

Other observations

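The other pathway genes were also compared between the controls. Of 104 tested, 30 were lower and 19 higher at 12 h than at 4 h (28.8% and 18.3%), against 16.6% and 28.4% of all tested genes, with the array sets confounded as for the members. Of the antigen presentation genes in this list, 12 of 24 were lower, among them Cd74, the invariant chain of class II molecules (-2.90 ± 0.43, adjusted p = 0.000249) and RT1-T24-3, a class I gene (-4.18 ± 0.39, adjusted p = 7.76e-06). Lower effectors and conjugation genes included Lgals9, a galectin (-3.44 ± 0.39, adjusted p = 3.82e-05), Ube2l6, the enzyme that conjugates Isg15 (-1.99 ± 0.19, adjusted p = 1.08e-05), Ifi27 (-1.75 ± 0.21, adjusted p = 5.66e-05) and Ifitm1 (-1.65 ± 0.17, adjusted p = 1.33e-05). The kinase Tyk2 (1.12 ± 0.23, adjusted p = 0.00183), Stat3 (0.62 ± 0.14, adjusted p = 0.00316), the ADP-ribosyltransferases Parp10 (1.04 ± 0.21, adjusted p = 0.00148) and Parp12 (0.91 ± 0.20, adjusted p = 0.00321), Herc4 (0.64 ± 0.16, adjusted p = 0.00546) and Rfx5 (0.62 ± 0.15, adjusted p = 0.00518) were higher.

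Of the 104 tested pathway genes, 4.81% had a higher and 3.85% a lower EGF effect at 12 h than at 4 h. Over all tested genes these shares were 6.55% and 7.45%, so nothing about the pathway is read from the counts. Time, experiment and RNA or labelling quality cannot be told apart here. The EGF effect differed between 12 h and 4 h in 5 pathway genes upward and 4 downward. It was higher at 12 h for Cxcl10 (2.22 ± 0.36, adjusted p = 0.00173), Jak1 (0.82 ± 0.15, adjusted p = 0.00411), Slfn9 (1.42 ± 0.28, adjusted p = 0.0059), RT1-S3 (0.88 ± 0.21, adjusted p = 0.0175) and RT1-T24-4 (1.43 ± 0.38, adjusted p = 0.0278), and lower for Nampt (-1.82 ± 0.17, adjusted p = 3.69e-05), RT1-M3-1 (-1.76 ± 0.22, adjusted p = 0.000283), Slfn5 (-1.01 ± 0.20, adjusted p = 0.00625) and Rig1 (-0.81 ± 0.19, adjusted p = 0.016).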
